A study of Caenorhabditis elegans with 18 samples.

Results

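*C38D9.2* is 1 gene of the 29970 in the mRNA table and 1 of the 2215 loci that the deposited annotation classes as sources of WAGO 22G-RNAs. It was selected on its mRNA values, as the WAGO target whose mRNA was highest over wildtype in both *tcer-1* mutants, so those values are given here as a description and without a test. Its only row in the small RNA table, of class WAGO 22G, played no part in that choice and was tested. The RefSeq annotation calls its product a RING-type domain-containing protein, and RING domains are zinc-binding folds found in many ubiquitin ligases.

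The study asked whether TCER-1, a transcription elongation and splicing factor, is needed for WAGO 22G-RNAs and the mRNAs they target. sRNA-seq and mRNA-seq were done on whole gravid adult hermaphrodites of *C. elegans*, collected after 72 h at 20 °C on *E. coli* OP50, with no infection. The 3 genotypes were wildtype (strain N2), strain CF2166 with the allele *tcer-1(tm1452)* and strain AGP278 with the allele *tcer-1(glm27)*, called *tm1452* and *glm27* below, each with 3 biological replicates for either kind of library and so 18 libraries in all. *tcer-1(glm27)* is a CRISPR deletion of the whole gene, and the study describes asynchronous development for *tm1452* but not for *glm27*. Both mutants were compared with the same wildtype libraries, so the comparisons are not independent of each other.

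22G-RNAs are short antisense RNAs that begin with G. RNA-directed RNA polymerases copy them from a target mRNA in perinuclear condensates, with help from the Mutator proteins. WAGO Argonautes then carry them back to the same mRNA, or to the nascent transcript through the nuclear Argonautes, and the target is silenced. A well silenced template can show many 22G-RNAs beside little mRNA.

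*C38D9.2* (WBGene00008010) lies on the forward strand of chromosome V, at chrV:17567150-17571742 of WBcel235, the assembly of WormBase WS279. The gene spans 4593 bases and has 4 annotated transcripts. Transcript 1 has 9 exons, 7 of them with coding sequence, a spliced length of 2166 bases and a coding length of 1482 bases for 493 codons. Of the gene's span, 22.3% is soft-masked as repeat in the RefSeq genome. Since a 22G-RNA begins with G opposite a C of its template, the 513 C of the spliced transcript (23.7% of its bases) are the positions at which one could start.

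A search of 19971 RefSeq proteins by blastp (E-value at most 1e-05) found 3 relatives of C38D9.2. F15D4.5, a CCHC-type domain-containing protein of 491 residues, was 59.7% identical over 499 aligned positions. R09H3.3, uncharacterized and 171 residues long, was 53.6% identical over 110 positions, and F54B11.7, another CCHC-type protein, was 25.3% identical over 198. The coding sequences of *C38D9.2* and *F15D4.5* aligned over 1491 bases with 72.4% identity, and this is the pair whose small RNAs could be confused. The stretch below shows them at their closest. It starts at the first base of exon 4 of *C38D9.2* (chrV:17569756-17569875, forward strand), the second coding exon, and is set against chrII:13245803-13245922, forward strand, in *F15D4.5*. Capitals mark the bases at which the genes differ, 5 of 120.
C38D9.2: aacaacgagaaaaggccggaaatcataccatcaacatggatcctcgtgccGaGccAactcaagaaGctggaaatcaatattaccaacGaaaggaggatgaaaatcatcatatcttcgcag
F15D4.5: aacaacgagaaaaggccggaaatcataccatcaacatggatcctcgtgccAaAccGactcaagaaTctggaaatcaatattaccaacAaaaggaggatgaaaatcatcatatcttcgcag

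Of the 2145 stretches of 22 bases in transcript 1 of *C38D9.2*, 125 (5.83%) occurred elsewhere in the genome, 104 of them in exons of *F15D4.5* and 21 between genes. Of the 512 stretches that end in C, the only ones that a 22-base 22G-RNA could pair with along its whole length, 33 occurred elsewhere. Conversely, 117 of the 1455 coding stretches of *F15D4.5* occurred in *C38D9.2*. How reads that match both genes were divided between them is not given in the sources used here, and reads at the shared stretches could not be counted. Before any division by length, *F15D4.5* had the more 22G-RNA reads in every genotype (1897 against 432 RPM in wildtype), so the part of shared reads in the *C38D9.2* values below was not tested.

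The window of 250 bases before the first annotated start of *C38D9.2* (chrV:17566900-17567149, forward strand) is shown because the gene's mRNA is low in wildtype and abundant in the mutants. The other transcripts start further on, at chrV:17567163, chrV:17567513 and chrV:17568466, and which start was used was not tested. Capitals mark its single match, on the reverse strand, to GATAA, the core bound by GATA factors such as the intestinal ELT-2.
C38D9.2 upstream: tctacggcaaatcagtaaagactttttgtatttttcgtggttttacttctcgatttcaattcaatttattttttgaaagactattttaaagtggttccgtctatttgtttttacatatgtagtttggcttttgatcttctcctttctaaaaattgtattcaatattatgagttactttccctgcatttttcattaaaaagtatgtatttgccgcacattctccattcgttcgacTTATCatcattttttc
That match begins 16 bases before the start, and 52.3% of 19971 such windows held one on either strand. Neither TATAAA, a core promoter element found in 35.2% of windows, nor GTAAACA, an element bound by DAF-16 and found in 4.36%, occurred in it. These matches are letters in a window and not measured sites.

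The libraries were of similar depth. The value of 1 read was inferred from the deposited values, for mRNA as the most frequent value near 1. It put the sRNA-seq libraries at about 12911556 to 16012810 reads and the mRNA-seq libraries at about 17998459 to 27818071. Replicates correlated at 0.986 to 0.989 for mRNA and 0.992 to 0.996 for small RNAs, except that replicate 3 of the *tm1452* small RNA libraries stood apart from replicates 1 and 2 (r = 0.936 and 0.941), so the small RNA tests of *tm1452* against wildtype below are also given without it. *tcer-1* mRNA was 6085 ± 239 normalized counts in wildtype (SD, n = 3), 949 ± 82.2 in *tm1452* and 498 ± 29.3 in *glm27*, in which reads were thus still counted for the deleted gene.

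*C38D9.2* mRNA was close to absent in wildtype and abundant in both mutants. The wildtype libraries held 16.8, 18.0 and 17.9 normalized counts of it, which stand for about 19, 17 and 16 reads. In *tm1452* the values were 2184, 2491 and 2189, and in *glm27* 4304, 3838 and 4020. The lowest mutant library was thus far above the highest wildtype library, and the mutants did not overlap each other either, with *glm27* above *tm1452*. How many other mRNAs separated in this way was not counted.

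The mean was 17.6 ± 0.676 normalized counts in wildtype, 2288 ± 176 in *tm1452* and 4054 ± 235 in *glm27* (SD, n = 3 each). The ratio of mutant to wildtype mean was 130.1 in *tm1452* and 230.6 in *glm27*, and the mean of *glm27* was 1.77 times that of *tm1452*. On the scale of log2(normalized count + 1), the differences from wildtype were 6.94 and 7.77 (standard error 0.07 for both), and *tm1452* was 0.83 below *glm27*. With only about 16 to 19 reads in a wildtype library, the size of the ratios and differences from wildtype is uncertain. The standard error comes from the spread between libraries and may understate this. Of the 17037 mRNAs with a mean of at least 2, 0 had a larger difference in either mutant. Since whole animals were sequenced, more cells that express a gene and more of its RNA in each cell cannot be told apart.

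Per kilobase of exon (3.834 kb for *C38D9.2*), its mRNA was at 4.59 normalized counts in wildtype, below 14670 of 17034 genes. It was at 597 in *tm1452* and at 1057 in *glm27*, with 4792 and 2754 genes above it. A gene at percentile 13.9 of wildtype levels thus stood at percentile 71.9 in *tm1452* and 83.8 in *glm27*.

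**Figure D1:**
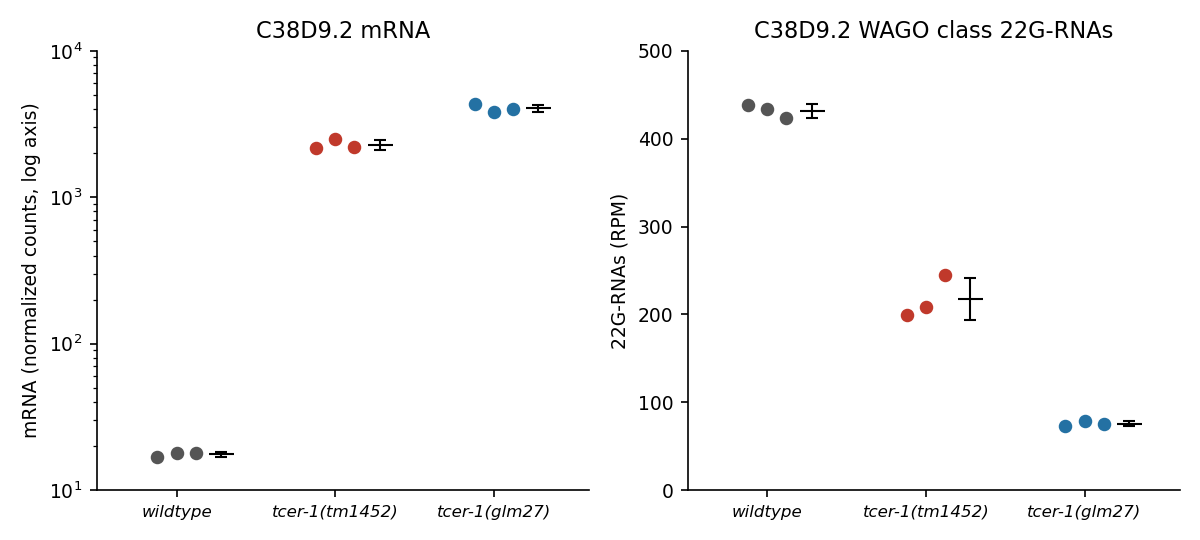
*C38D9.2* mRNA in normalized counts on a log axis (left) and its WAGO class 22G-RNAs in RPM (right), with 1 point for each library and the mean and SD of each genotype in black. mRNA was 16.8 to 18.0 in wildtype against 2184 to 4304 in the mutants, and 22G-RNAs were 423 to 438 RPM in wildtype, 199.9 to 245 in *tm1452* and 72.8 to 78.9 in *glm27*.

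*C38D9.2* 22G-RNAs were lower in both mutants, by far less than its mRNA was higher. Wildtype libraries held 438, 433 and 423 RPM (reads scaled to the size of the library), about 6199, 6138 and 5466 reads. *tm1452* libraries held 199.9, 208 and 245 RPM, the highest being replicate 3, the library that stands apart. *glm27* libraries held 72.8, 78.9 and 75.2 RPM, about 940, 1230 and 1108 reads. The 3 genotypes did not overlap at any point, in the order wildtype, *tm1452*, *glm27* from high to low, which is the reverse of the mRNA order. How many other small RNA features separated in this way was not counted, so the separation is only a description.

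The mean 22G-RNA level was 432 ± 7.60 RPM in wildtype, 218 ± 23.7 in *tm1452* and 75.6 ± 3.10 in *glm27* (SD, n = 3 each), so that the mutants had 0.504 and 0.175 of the wildtype level. On the scale of log2(RPM + 1), 22G-RNAs fell in *tm1452* (-0.99, standard error 0.07, limma, Benjamini-Hochberg adjusted p = 1.03e-05) and in *glm27* (-2.50, standard error 0.07, limma adjusted p = 6.86e-08). The share of all 7376 small RNA features that fell by that test was 42.2% in *tm1452* and 44.3% in *glm27*, shares that dropped to 18.2% and 17.7% with equal upper quartiles, where the locus still fell, and were 50.4% and 59.6% without replicate 3 of *tm1452*. A fall of at least 2-fold was found for 10.9% and 9.08% of features, and *C38D9.2* reached it in *glm27* and missed it narrowly in *tm1452*. Without replicate 3 of *tm1452* these shares were 9.30% and 9.25%.

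The difference between the alleles was tested too. 22G-RNAs of *C38D9.2* were 1.51 higher on the log2 scale in *tm1452* than in *glm27* (limma adjusted p = 2.15e-06), a comparison in which 16.3% of features were higher. Without replicate 3 of *tm1452*, the fall in *tm1452* was -1.08 and the difference between the alleles was 1.42, both still past the threshold, while 23.6% of features were higher in *tm1452* than in *glm27*. The two-sided exact permutation test of the locus alone gave p = 0.1 in each of the 3 comparisons, the smallest that 3 libraries against 3 allow.

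Over all features, the median log2 fold change of small RNAs was -0.33 in both mutants. Relative to it, *C38D9.2* 22G-RNAs were at -0.66 in *tm1452* and -2.17 in *glm27*. Summed miRNAs, which share the same library total, took 226864 to 236926 RPM in wildtype, 273317 to 322419 in *tm1452* and 298557 to 314923 in *glm27*, and their part in the lower 22G-RNA values was not tested beyond the rescaling to equal miRNA totals.

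Set among 2064 tested WAGO loci, *C38D9.2* had a fall of common size in *tm1452* and one of the larger falls in *glm27*. The loci with a larger fall numbered 444 (21.5%) in *tm1452* and 77 (3.73%) in *glm27*. WAGO 22G-RNAs fell at 1163 loci (56.3%) in *tm1452* and 1273 (61.7%) in *glm27*, with median log2 fold changes of -0.31 and -0.40. These values rest on the scaling, since with equal upper quartiles 742 (35.9%) and 764 (37.0%) loci fell and the medians were 0.0008 and -0.03, whereas 455 and 81 loci still had a larger fall than *C38D9.2*. Without replicate 3 of *tm1452*, 1291 and 1392 WAGO loci fell and 427 and 77 did so by more than *C38D9.2*. Per kilobase of exon over all annotated transcripts, the locus gave 113 RPM in wildtype, with 410 of 1860 WAGO loci above it. It gave 56.8 RPM with 568 above it in *tm1452* and 19.7 RPM with 983 above it in *glm27*.

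A minority of WAGO targets with a 22G-RNA fall of this size had mRNA 2-fold higher. Their share was near that of all targets in *tm1452* and above it in *glm27*, and this was not tested. Among 1747 WAGO targets tested in both readouts, 426 had 22G-RNAs down by at least as much as *C38D9.2* in *tm1452*, itself included, and the mRNA of 69 of them (16.2%) was at least 2-fold higher, against 13.9% of all 1747. In *glm27* this held for 14 of 73 (19.2%), again with *C38D9.2* included, against 8.30% of all. *C38D9.2*, chosen for its mRNA, is also counted among the 69 and the 14, which raises both shares slightly. The median mRNA log2 fold change of the loci with a larger 22G-RNA fall was -0.10 in *tm1452*, where it was also -0.10 over all 1747 targets. It was 0.38 in *glm27*, against 0.10 over all targets.

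**Figure D2:**
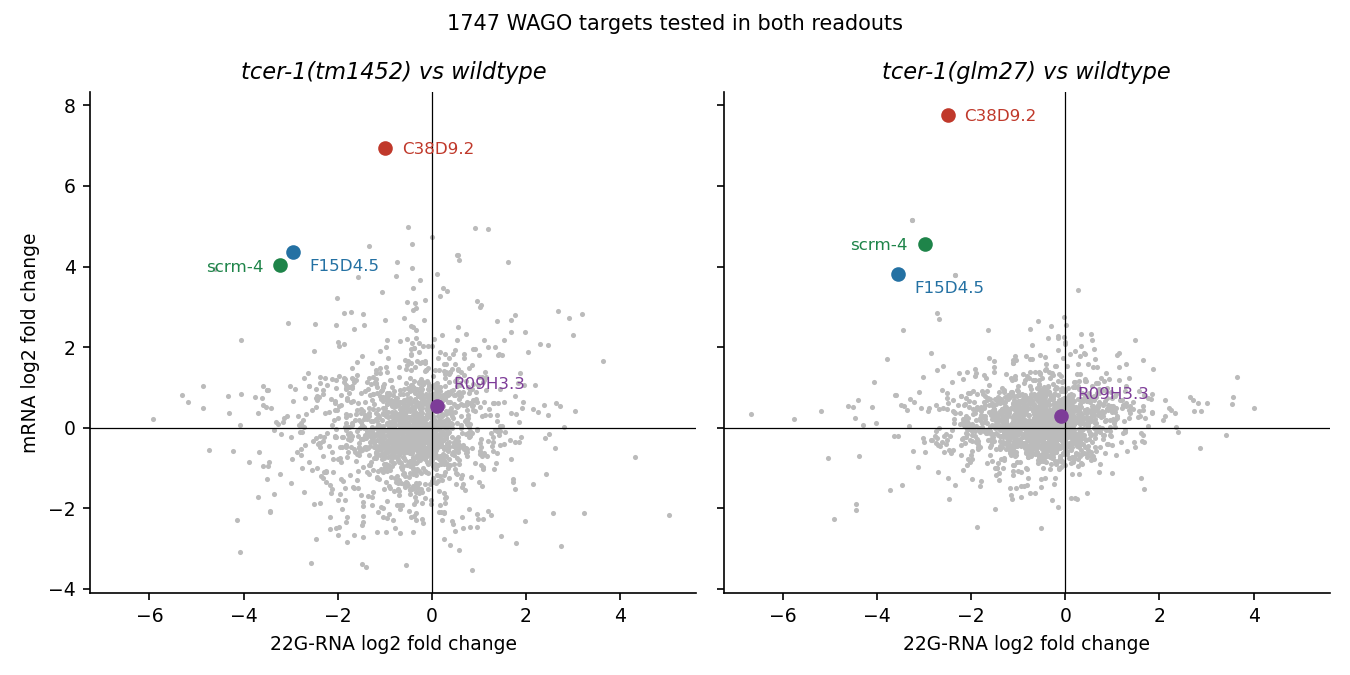
Change of mRNA (vertical, log2) against change of 22G-RNAs (horizontal, log2) for 1747 WAGO targets in *tm1452* (left) and *glm27* (right), each against the same wildtype libraries, with 1 point a gene. *C38D9.2* stands alone at the top in both, at 6.94 and 7.77 in mRNA, while other targets lie further left.

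Put as a ratio, the wildtype had 24.5 RPM of 22G-RNA for each normalized count of *C38D9.2* mRNA. The ratio was 0.0951 in *tm1452* and 0.0187 in *glm27*, lower by 258 and 1316 times. The 22G-RNA means alone were lower by 1.98 and 5.71 times, and the rest of the difference lay in the mRNA. The mRNA part rests on few wildtype reads, so its size is uncertain.

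The WAGO targets next in order of mRNA, ranked by the smaller of the differences in both alleles, were *scrm-4*, *F15D4.5* and *ZK177.2*, and they too were picked by that value. *scrm-4*, a phospholipid scramblase gene, went from 46.9 ± 1.71 normalized counts in wildtype to 781 ± 22.4 in *tm1452* and 1131 ± 16.0 in *glm27*, log2 differences of 4.03 and 4.56. Its 22G-RNAs went from 82.1 ± 0.650 RPM to 7.89 ± 0.320 and 9.49 ± 0.665, log2 fold changes of -3.22 in *tm1452* (limma adjusted p = 1.72e-08) and -2.99 in *glm27* (limma adjusted p = 1.58e-08). The gap in mRNA between *C38D9.2* and the next target was thus wide, with no like gap in 22G-RNAs. Without replicate 3 of *tm1452* the *scrm-4* value there was -3.21.

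*ZK177.2* had the other direction of 22G-RNA change. Its mRNA was listed at 0 in all wildtype libraries, at 25.1, 59.3 and 17.5 normalized counts in *tm1452* and at 5.68, 23.3 and 6.55 in *glm27*. Its 22G-RNAs rose from 13.9 ± 0.244 to 33.3 ± 5.89 RPM in *tm1452* (log2 1.19, limma adjusted p = 5.11e-05) and were at 17.1 ± 1.31 RPM in *glm27* (log2 0.28, limma adjusted p = 0.0761). Without replicate 3 of *tm1452* the rise was 1.06.

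*F15D4.5*, the closest relative by sequence, shared both directions of change with *C38D9.2*. Its mRNA was 82.2, 73.1 and 76.0 normalized counts in wildtype, 1645, 1643 and 1541 in *tm1452* and 1187, 1035 and 1087 in *glm27*. The log2 differences were 4.37 and 3.82, so *F15D4.5* was higher in *tm1452* than in *glm27*, the opposite order to *C38D9.2*.

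22G-RNAs of *F15D4.5* were 1968, 1949 and 1775 RPM in wildtype, 208, 214 and 324 in *tm1452* and 161.7, 161.9 and 154 in *glm27*. They fell in *tm1452* (log2 -2.96, limma adjusted p = 9.51e-07) and in *glm27* (log2 -3.57, limma adjusted p = 4.07e-07). Replicate 3 of *tm1452* was again the highest of its genotype, as for *C38D9.2*, and without it the *tm1452* value was -3.16.

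Of the other relatives, *R09H3.3* did not follow in mRNA, and *F54B11.7* was too low to judge. *R09H3.3* had 7.95 ± 2.29 normalized counts in wildtype, 11.9 ± 2.10 in *tm1452* and 9.83 ± 0.963 in *glm27*, with overlapping libraries (log2 0.54, limma adjusted p = 0.155, and 0.30, limma adjusted p = 0.446). It is nonetheless a WAGO target with many 22G-RNAs, at 465 ± 10.7 RPM in wildtype, 502 ± 17.2 in *tm1452* and 436 ± 7.65 in *glm27*, none of it past the threshold (log2 0.11, limma adjusted p = 0.0531, and -0.09, limma adjusted p = 0.107), though sign and call changed with the scaling of the libraries. Without replicate 3 of *tm1452* the value there was 0.09 (limma adjusted p = 0.0366), past the threshold. *F54B11.7* averaged 1.05, 1.08 and 0.922 normalized counts in the 3 genotypes, too low to be tested.

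**Figure D3:**
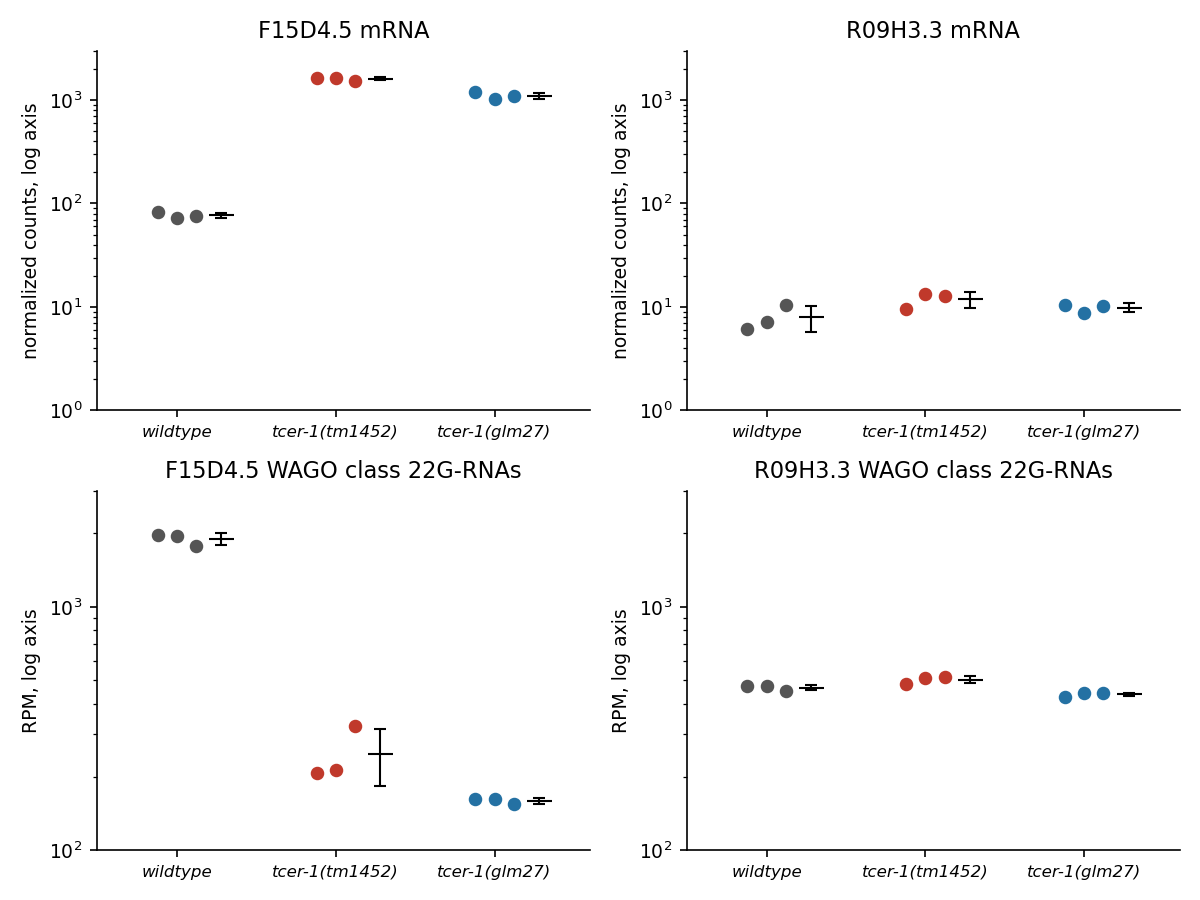
mRNA in normalized counts (top) and WAGO class 22G-RNAs in RPM (bottom), both on log axes, of *F15D4.5* (left) and *R09H3.3* (right), with 1 point for each library and the mean and SD of each genotype in black. *F15D4.5* mRNA was 73.1 to 82.2 in wildtype and 1035 to 1645 in the mutants, while the levels of *R09H3.3* stayed between 6.13 and 13.4 for mRNA and between 428 and 516 RPM for 22G-RNAs.

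*C38D9.2* sits among F-box genes of the *fbxa* family, a large group of presumed ubiquitin ligase adaptors, and none of its neighbours has a row in the small RNA table. On the left, *fbxa-171* (1146 bases away, reverse strand) had a mean of 0.294 normalized counts in wildtype, 0.997 in *tm1452* and 1.24 in *glm27*. The pseudogene *fbxa-173* was listed at 0 in all libraries, and *fbxa-172* did not exceed 4.69 in any.

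On the right, *C38D9.13* begins 1465 bases beyond the end of *C38D9.2* (chrV:17573208-17574227, forward strand) and is annotated as a non-coding RNA. It was listed at 0, 3.14 and 2.28 normalized counts in wildtype, at 45.0, 52.9 and 40.5 in *tm1452* and at 70.8, 61.1 and 59.7 in *glm27*. It rose by 4.30 on the log2 scale in *tm1452* (standard error 0.42, limma adjusted p = 4.72e-07) and by 4.76 in *glm27* (standard error 0.42, limma adjusted p = 3.20e-07). The alleles differed by -0.47 (standard error 0.42, limma adjusted p = 0.387), which missed the threshold although the 3 libraries of one did not overlap those of the other. Wildtype values of so few reads leave the size of these changes uncertain.

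Further out, the changes were of other kinds. *fbxa-133*, 13050 bases away, was listed at 0 throughout. The pseudogene *C38D9.5*, 15109 bases away, had 1.75 ± 0.751 normalized counts in wildtype, 13.1 ± 6.06 in *tm1452* (log2 2.29, limma adjusted p = 0.0071) and 3.66 ± 3.26 in *glm27* (log2 0.37, limma adjusted p = 0.651). *C38D9.8*, 14290 bases to the left, fell in *tm1452*, from 48.9 ± 5.17 to 6.92 ± 2.71 normalized counts (log2 -2.70, limma adjusted p = 4.03e-07), and was at 41.4 ± 0.994 in *glm27* (log2 -0.23, limma adjusted p = 0.461).

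**Figure D4:**
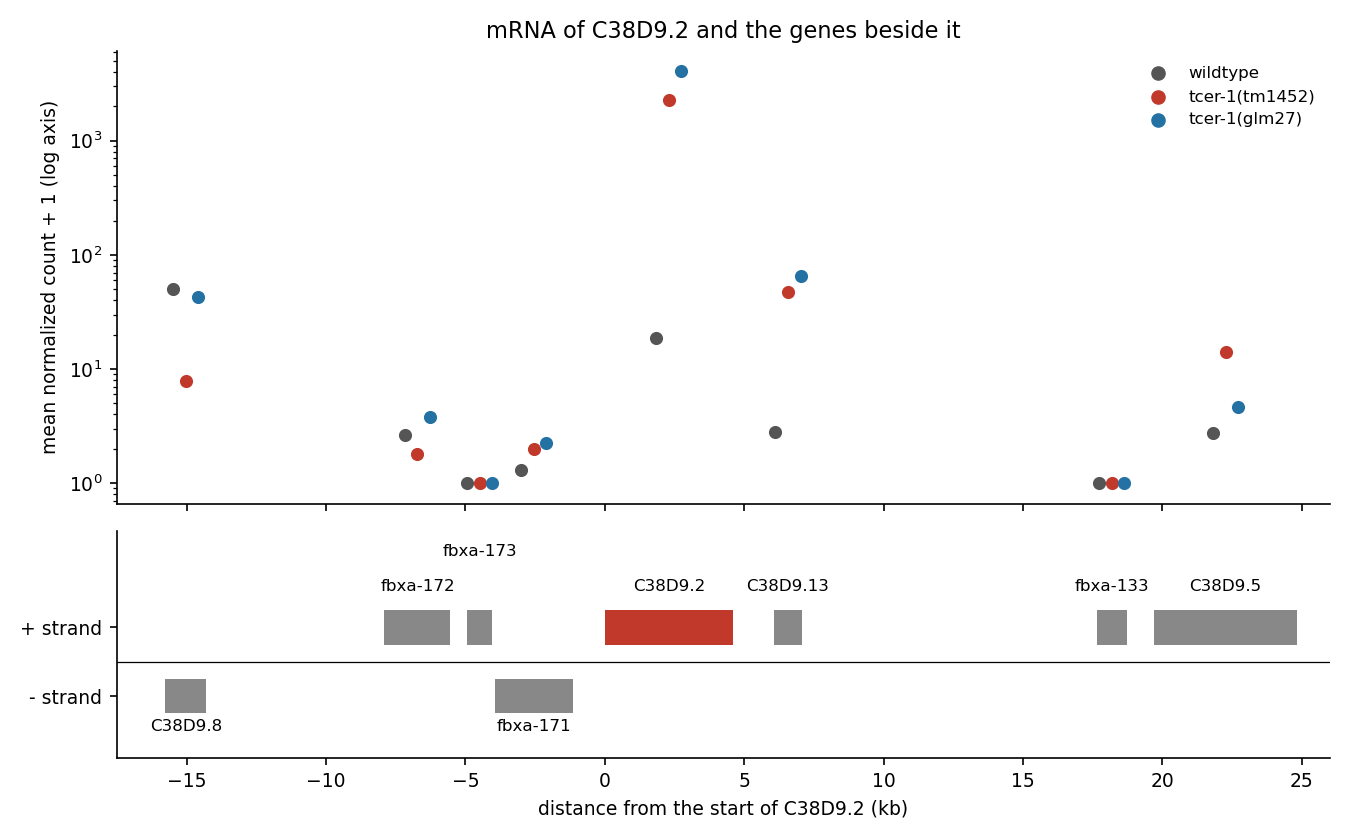
Mean mRNA of *C38D9.2*, the 3 nearest genes with a row on either side and *C38D9.8* (top, normalized count + 1, log axis, 1 point for each genotype) over their positions and strands (bottom), by distance from the start of *C38D9.2* in kb, other genes not being drawn. *C38D9.2* and *C38D9.13* are higher in both mutants, *C38D9.8* is lower in *tm1452* at 6.92, and the *fbxa* genes stay near 0.

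The mRNAs whose levels followed *C38D9.2* most closely over the 9 libraries were *scrm-4* (Pearson r = 0.9997 on the log2 scale), *asp-13*, an aspartyl protease gene (0.998), *dhs-14*, of the dehydrogenase family (0.997), *F55B11.2* (0.996) and *cest-1.2*, a carboxylesterase gene (0.996). The correlations describe 3 genotypes with 3 libraries each, and 32 of 17036 mRNAs had an r above 0.99. The changes of 4 of these genes were small beside that of *C38D9.2*, with log2 fold changes of 0.97 to 1.52 in *tm1452* and 1.03 to 1.59 in *glm27*. *F15D4.5* had an r of 0.977.

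For 22G-RNAs, the WAGO loci most alike were *cdh-12*, a cadherin gene (r = 0.999), *syg-2*, an immunoglobulin superfamily adhesion gene (0.999), *Y32F6A.6* (0.998), *C06B8.7* (0.997) and *T11F9.10* (0.997), with 30 of 2063 loci above 0.99. *C06B8.7* came closest in size, its 22G-RNAs falling from 162.4 ± 6.22 RPM to 78.0 ± 15.4 and 27.5 ± 2.17. Without replicate 3, the mean in *tm1452* was 69.1 RPM for *C06B8.7* and 58.5 RPM for *Y32F6A.6*. *C06B8.7* mRNA fell in *tm1452* (log2 -0.49, limma adjusted p = 8.74e-05) and rose in *glm27* (log2 0.47, limma adjusted p = 0.000142). *Y32F6A.6*, with 22G-RNAs at 120.8 ± 4.34, 64.6 ± 10.7 and 26.3 ± 0.834 RPM, had mRNA of 49.8 ± 4.18, 56.5 ± 16.5 and 55.5 ± 3.27 normalized counts (limma adjusted p = 0.572 and 0.546).

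*cdh-12* mRNA rose in *tm1452* (log2 0.64, limma adjusted p = 0.000619) and was at -0.20 in *glm27* (limma adjusted p = 0.205), *syg-2* mRNA was at 0.25 and 0.47 (limma adjusted p = 0.308 and 0.068), and *T11F9.10* mRNA fell in *tm1452* (log2 -1.46, limma adjusted p = 0.0178) and was at -0.31 in *glm27* (limma adjusted p = 0.616). These loci could not match *C38D9.2* in mRNA, since it was chosen as the WAGO target with mRNA highest over wildtype. Their smaller mRNA differences are therefore only a description of these loci.

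Many genes that make or use WAGO 22G-RNAs were modestly lower in the mutants. Of 33 pathway genes tested, 25 fell and 1 rose in *tm1452*, where 34.1% of all mRNAs fell and 35.3% rose. In *glm27* 29 fell and 1 rose, where 27.5% of all mRNAs fell and 33.2% rose. The list had medians of -0.31 and -0.41 on the log2 scale, against 0.02 and 0.13 over all mRNAs tested.

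The largest fall in the list, ranked by the smaller of the changes in both mutants, was that of *nrde-1*, which acts with nuclear Argonautes on nascent transcripts. *nrde-1* fell from 2021 ± 119.9 normalized counts to 1008 ± 35.6 in *tm1452* (log2 -1.002, limma adjusted p = 1.45e-08) and 991 ± 93.7 in *glm27* (log2 -1.03, limma adjusted p = 2.88e-08). *rde-8*, an endonuclease gene, had log2 fold changes of -0.83 and -0.78, and *mut-2*, also named *rde-3*, which adds poly(UG) tails to templates, of -0.57 and -0.56 (limma adjusted p at most 1.02e-06). The Argonaute gene *ppw-2* was the one that rose, by 0.43 and 0.22 (limma adjusted p = 1.54e-05 and 0.00522).

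Cell type markers were counted against the same shares of all mRNAs, 35.3% higher and 34.1% lower in *tm1452* and 33.2% and 27.5% in *glm27*. Of 11 sperm genes, 11 rose in *tm1452* and 7 in *glm27*, none fell, and their medians were 3.37 and 1.54 on the log2 scale. Their summed level was 219 to 256 normalized counts in wildtype, 1304 to 1409 in *tm1452* and 423 to 491 in *glm27*. Of 10 germline and oocyte genes, 8 fell in *tm1452* and 9 in *glm27*, with medians of -0.69 and -0.67 and sums of 238059 to 254417, 157331 to 172657 and 158091 to 173946.

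Of 5 body wall muscle genes, 5 and 4 rose (medians 1.94 and 0.35, sums of 27981 to 36132, 105297 to 123469 and 39895 to 45191 in wildtype, *tm1452* and *glm27*). Of 6 hypodermis genes, 4 and 5 rose and 2 and 1 fell (medians 2.47 and 1.44, sums of 25950 to 26288, 84150 to 88124 and 49014 to 59322). Of 7 intestine genes, 2 rose and 4 fell in *tm1452*, and 3 rose in *glm27* (medians -0.41 and 0.19, sums of 955695 to 1141857, 731953 to 740201 and 1095178 to 1177866). Of 6 neuron genes, 5 and 3 rose and 1 and 2 fell (medians 0.86 and 0.36, sums of 3011 to 3378, 3981 to 4278 and 3249 to 3320). With 5 to 7 genes a list, the intestine and neuron counts in *glm27* were near the shares over all mRNAs.

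Between the mutants, the sums for sperm, body wall muscle, hypodermis and neuron genes were higher in *tm1452*. Those for intestine genes were higher in *glm27*, as *C38D9.2* mRNA was, and those for germline and oocyte genes overlapped. Against wildtype, the intestine sums were lower in *tm1452* and overlapped in *glm27*, whereas *C38D9.2* mRNA was higher in both. The part of these cell types in the levels of *C38D9.2* and of the pathway genes was not tested.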

How the data were processed

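Small RNA and mRNA libraries of 3 genotypes, with 3 biological replicates each, were compared. For sRNA-seq the authors deposited RPM (reads scaled to the size of the library) for each locus and class, from the tinyRNA pipeline with default settings, size-selected RNAs of 16 to 30 nt and WormBase WS279. 22G-RNAs were antisense reads with a 5′ G in a narrow range of lengths around the nominal one. For mRNA-seq the authors deposited normalized counts, a signal in units of reads divided by a size factor, from fastp, RSEM 1.3.1 with STAR 2.7.10b, and DESeq2, from rRNA-depleted strand-specific libraries. RPM is a share of a library, so a rise of 1 class lowers the others. The small RNA tables sum to 638133 to 660976 RPM and the mRNA tables to 22491326 to 23721969. Value columns that matched no sample numbered 0.

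Values were compared as log2(value + 1) in R 4.3.3 by limma 3.58.1, with moderated variances that follow the mean level, 1 fit to the 9 libraries of either kind, and Benjamini-Hochberg adjustment over all features tested, here those with a mean of at least 2 (7376 of 23147 small RNA features in the 6 classes used, and 17037 of 29970 mRNAs). A change needed an adjusted p under 0.05. The study's count-based test was not run, since only 55.5 to 66.2% of 22G-RNA values and 53.0 to 85.3% of mRNA values worth at most 5 reads were whole multiples of 1 read (within rounding to 2 decimals, and within 0.02 of a read). The numbers of reads given are therefore approximate. Positions, sequences and protein relatives came from the RefSeq annotation and the Ensembl gene models of WBcel235 with BLAST 2.17.0. Other software was matplotlib 3.10.9, scipy 1.17.1, pandas 2.3.3, numpy 2.4.6 and Python 3.11.15.

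The gene, the lists (pathway, sperm, germline and oocyte, intestine, body wall muscle, neuron, hypodermis) and the tests were chosen with earlier results of these data known. Named genes followed a rule: *C38D9.2*; tested genes of the same cosmid name; the 3 nearest genes on either side; protein relatives; the next 3 WAGO targets in mRNA difference; the 5 mRNAs and the 5 WAGO loci with the highest r; the largest changes in the pathway list; and *tcer-1*. Alternatives were pseudocounts of 0.5 and 5, no filter and a mean of 10, libraries rescaled to equal totals, upper quartiles, medians of ratios or miRNA totals, fits of the compared groups alone, no trend, a replicate block, and each library left out in turn.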

Additional observations from a re-analysis of the deposited data

Results flagged for a closer look

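The following results differed between *tm1452* and *glm27*, by limma's test of that difference where an adjusted p is given. Each is given as *tm1452* minus *glm27* on the log2 scale. 22G-RNAs of *C38D9.2* differed by 1.51 (adjusted p = 2.15e-06), having fallen less in *tm1452*. mRNA of the pseudogene *C38D9.5* differed by 1.92 (adjusted p = 0.0292), and mRNA of *C38D9.8* by -2.47 (adjusted p = 2.96e-06). mRNA of *ZK177.2* differed by 1.52, with values of 17.5 to 59.3 normalized counts in *tm1452* and 5.68 to 23.3 in *glm27* that overlap. That gene was picked by its mRNA values, so this is a description without a test. CSR class 22G-RNAs of *tcer-1* itself differed by -1.46 (adjusted p = 4.10e-07), with 19.5 ± 0.114 RPM in wildtype, 15.7 ± 0.658 in *tm1452* and 44.8 ± 1.03 in *glm27* (SD, n = 3 each), although *glm27* deletes the gene.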

How the results depend on the processing

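The fall of *C38D9.2* 22G-RNAs in both mutants and the difference between the alleles kept their direction and stayed past the threshold in every alternative. Rescaling moved the changes against wildtype most: in *tm1452* the log2 fold change was -0.67 with equal upper quartiles, -0.67 with medians of ratios and -1.38 with equal miRNA totals, and in *glm27* -2.11, -2.11 and -2.89. Between the alleles it gave 1.44 to 1.52. Leaving out each library in turn gave -1.08 to -0.93 in *tm1452*, -2.53 to -2.47 in *glm27* and 1.42 to 1.57 between the alleles. The 2-fold limit in *tm1452* was crossed with equal miRNA totals, without wildtype replicate 3 (-1.0037) and without *tm1452* replicate 3 (-1.08). The mRNA difference of *C38D9.2* was 6.66 and 7.49 with a pseudocount of 5 and 7.85 in *glm27* with equal upper quartiles, and ranged over 6.88 to 6.97, 7.72 to 7.81 and -0.89 to -0.78 with single libraries left out.

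The replicate numbers did not pair the libraries (correlations of same-numbered deviations of -0.54 to 0.39 for small RNAs and -0.04 to 0.08 for mRNA). With the replicate number as a block the log2 fold changes were the same, and the adjusted p of the 22G-RNAs was 0.000157, 6.04e-06 and 6.94e-05. Small RNA features that fell numbered 3112 in *tm1452* and 3268 in *glm27*, but 1343 and 1309 with equal upper quartiles, 1344 and 1310 with medians of ratios, 5341 and 5204 with equal miRNA totals and 2029 and 2112 with a mean of at least 10. Those higher in *tm1452* than in *glm27* numbered 1199, against 1930 without a filter and 762 with equal miRNA totals. Values that changed sign were *R09H3.3* 22G-RNAs, at -0.28 in *tm1452* with equal miRNA totals and at 0.30 in *glm27* with equal upper quartiles or medians of ratios, *ZK177.2* 22G-RNAs in *glm27*, at -0.10 with equal miRNA totals, *tcer-1* CSR class 22G-RNAs in *tm1452*, at 0.0071 with equal upper quartiles and 0.0097 with medians of ratios, and *C38D9.5* mRNA in *glm27*, at -0.16 without replicate 2 of that genotype and 1.27 without replicate 1. Intestine genes higher in *glm27* numbered 3, but 5 or 6 in 3 settings, neuron genes lower there 2, but 1 in 5 settings, and hypodermis genes lower in *tm1452* and *glm27* 2 and 1, but 1 and 0 in 3 and 5 settings. Of the remaining values for named genes, 632 kept their call and 13, all of *R09H3.3* or of *ZK177.2* 22G-RNAs in *glm27*, newly passed the threshold. Where values moved, the cause was not tested.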
